A study of Arabidopsis thaliana with 6 samples.

Results

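The transcripts described here are those of 10 Arabidopsis thaliana genes that sense damaged DNA or signal it to the cell cycle, out of 33489 genes in the count tables. They were taken by gene identifier: ATM, ATR, ATRIP, RAD9, HUS1, RAD17, WEE1, MRE11, NBS1 and RAD50. Polyadenylated RNA was sequenced from whole seedlings grown for 14 days on a petri dish, with 3 samples from wild-type Col-0 plants and 3 from the line zdp-1 ape2-2, which carries mutant alleles of ZDP and APE2 and which the labels call a knockout of both genes. No treatment is named for either group, and the labels do not say whether the samples of a group came from separate cultures, so a p-value here reflects the scatter of these 6 libraries alone, part or all of which may be technical. The comparison asks whether transcript levels of these 10 genes differed between the double mutant and the wild type.

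The enzymes encoded by the mutated genes clean blocked DNA ends during excision repair. ZDP is a phosphatase, and APE2 belongs to the family of abasic-site endonucleases. DNA breaks are first bound by a complex of MRE11, RAD50 and NBS1, which activates the kinase ATM. Single-stranded DNA at stalled forks or resected ends recruits the related kinase ATR through its partner ATRIP, while RAD17 loads a ring-shaped clamp of RAD9, RAD1 and HUS1 that stimulates ATR. In plants both kinases act on the transcription factor SOG1, and WEE1, a kinase that holds back cyclin-dependent kinases, is a known effector of the checkpoint whose transcript is known to be induced by replication stress and DNA damage.

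The clamp loader gene RAD17 and the effector gene WEE1 rose in zdp-1 ape2-2, while the kinase genes ATM and ATR, the ATR partner ATRIP and the break-sensor gene RAD50 were lower by less than 1.3-fold. The clamp genes RAD9 and HUS1 and the break-sensor genes MRE11 and NBS1 did not pass the test. All 10 genes passed the filter on low counts. Levels are given as CPM, counts scaled to one common library total with TMM factors, and differences as log2 fold changes of the mutant against Col-0 from edgeR's quasi-likelihood test, called at an adjusted p below 0.05 over all 21182 genes tested. By this rule 6 of the 10 genes were called, where 43.4% of all tested genes were. Of the 6, 2 were higher and 4 lower, against 22.2% of all tested genes higher and 21.2% lower, so the share that was higher is close to that of all genes. The count of 4 lower was 2 with DESeq2, with library totals alone, with a correction for GC content and exon length, without Col-0 replicate C and without mutant replicate A, and 0 at an assumed coefficient of variation of 0.1, while the count of 2 higher was the same in each of these. With library totals alone in place of TMM, 6964 of all genes were higher and 2717 lower, against 4699 and 4498. The median log2 fold change was -0.11 over the 10 genes and 0.00 over all tested genes.

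**Figure D1:**
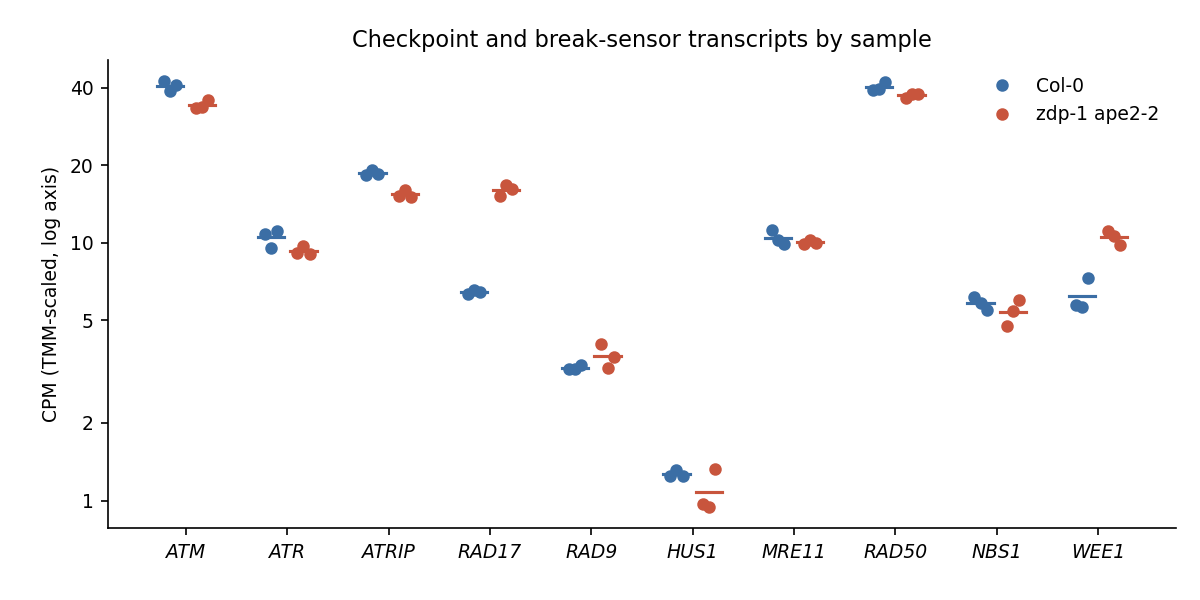
CPM of the 10 genes in each library, on a log axis; points are the 3 libraries from Col-0 (blue) and from zdp-1 ape2-2 (red), and bars their means. RAD17 and WEE1 stand higher in all 3 mutant samples than in any Col-0 sample, ATM, ATRIP and RAD50 lower. The groups overlap for the other 5 genes. Of all tested genes, 50.3% had groups that did not overlap.

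The libraries held 31190605 to 37241739 counts, so that 1 count was worth 0.0262 to 0.0328 CPM. Both targeted genes were still counted, ZDP at 29.4 ± 1.37 CPM in Col-0 and 17.9 ± 1.43 in the mutant and APE2 at 8.18 ± 0.87 and 5.75 ± 0.12 (SD, n = 3 in each group). Exons of another gene lie over 33.6% of those of APE2. All 5 leaf markers and all 5 root markers were counted in every library. In the mutant 5 of the leaf and 3 of the root markers were lower and none was higher. Of all tested genes 21.2% were lower and 22.2% higher. Summed, the leaf markers stood at 35317 to 36106 CPM in Col-0 and 28732 to 29435 CPM in the mutant, and the root markers at 75.1 to 78.3 and 64.6 to 68.9 CPM, and their part in the results was not tested. In bulk tissue, fewer cells that express a gene and less RNA per cell cannot be told apart.

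RAD17 (AT5G66130, chromosome 5, 26433964 to 26437222, plus strand, TAIR10), the loader of the checkpoint clamp, showed the largest change of the 10. Its level was 6.34, 6.58 and 6.46 CPM in the Col-0 libraries A to C and 15.2, 16.8 and 16.2 CPM in the mutant libraries A to C, the order kept throughout. The groups lay far apart, with the lowest mutant sample more than 2-fold above the highest of Col-0. The log2 fold change was 1.31 ± 0.07 (SE; edgeR adjusted p = 1.18e-19), a 2.49-fold rise with a 95% interval of 2.27 to 2.73. A rise of at least this size was called for 304 genes, or 1.44% of those tested. The call held without any 1 of the 6 samples, at log2 fold changes of 1.28 to 1.35. Exons of a neighbouring gene on the other strand cover 2.41% of the exons of RAD17. Of the 19215 genes that averaged 1 CPM or more, the 3 with the most similar profile over the 6 samples were AT1G76960, at a Euclidean distance of 0.0784 in centred log2 CPM, AT1G65370 at 0.0809 and AT3G62460 at 0.0883. Their log2 fold changes were 1.34, 1.36 and 1.30, near that of RAD17 because the genes were chosen by likeness of profile.

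WEE1 (AT1G02970, chromosome 1, 673306 to 676419, plus strand) rose by a smaller factor. Its level was 5.76, 5.65 and 7.31 CPM in Col-0 and 11.1, 10.6 and 9.80 CPM in the mutant. Col-0 replicate C stood above the other two wild-type samples, and all mutant samples stood above it. The log2 fold change was 0.76 ± 0.08 (edgeR adjusted p = 2.93e-10), or 1.70-fold with a 95% interval of 1.51 to 1.90. At least as large a rise was called for 4.06% of the tested genes. With 1 sample left out the log2 fold change ranged from 0.69 to 0.88, the highest being without Col-0 replicate C. Of 11 mitotic genes that mark dividing cells, 7 were higher, 2 lower and 2 not called, where 22.2% of all tested genes were higher. Their summed level was 229 to 244 CPM in Col-0 and 251 to 258 CPM in the mutant, and none was at 0. Of 14 S-phase genes 10 were higher, none lower and 4 not called, with a median log2 fold change of 0.21. Their summed level was 438 to 447 CPM in Col-0 and 593 to 597 CPM in the mutant. Much of that difference lay in 1 gene, RNR1, whose mean went from 91.2 to 187 CPM. Of 5 floral markers the 4 tested were all higher, at summed levels of 9.89 to 10.3 and 24.6 to 25.0 CPM, with AP1 at 0 in 1 library. These lists were chosen with earlier results of these data known. The part of cell make-up in the rise of WEE1 or RAD17 was not tested.

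The sequence before the start of each gene was read from the TAIR10.1 chromosomes and searched for the letters of 3 elements. These were CTT and AAG with 7 bases between them, which SOG1 is known to bind, the E2F element of S-phase genes as TTTCCCGC, TTTGGCGC, TTTGCCGC or TTTCGCGC, and AACGG, the core of the element bound by MYB3R factors in mitotic genes, each on both strands. The sequence next to the start is shown for the pair of genes that rose and for ATM and ATRIP, the pair with the firmest decreases, with matches in capitals. It runs from 250 bases before the annotated start, or from the end of the neighbouring gene where that is nearer.
RAD17, chr5:26433901-26433963, plus strand: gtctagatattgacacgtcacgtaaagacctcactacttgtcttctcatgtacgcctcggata
WEE1, chr1:673056-673305, plus strand: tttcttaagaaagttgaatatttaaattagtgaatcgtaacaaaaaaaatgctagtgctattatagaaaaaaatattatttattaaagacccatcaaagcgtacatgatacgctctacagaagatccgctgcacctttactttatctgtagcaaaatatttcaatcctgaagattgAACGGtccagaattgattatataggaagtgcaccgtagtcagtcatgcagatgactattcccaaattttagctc
ATM, chr3:17801039-17801288, plus strand: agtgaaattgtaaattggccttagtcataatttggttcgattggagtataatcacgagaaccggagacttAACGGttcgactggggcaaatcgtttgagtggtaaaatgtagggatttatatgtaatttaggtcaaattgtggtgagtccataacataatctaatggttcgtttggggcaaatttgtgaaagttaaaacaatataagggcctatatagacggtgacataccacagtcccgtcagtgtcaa
ATRIP, chr5:18499889-18500138, minus strand: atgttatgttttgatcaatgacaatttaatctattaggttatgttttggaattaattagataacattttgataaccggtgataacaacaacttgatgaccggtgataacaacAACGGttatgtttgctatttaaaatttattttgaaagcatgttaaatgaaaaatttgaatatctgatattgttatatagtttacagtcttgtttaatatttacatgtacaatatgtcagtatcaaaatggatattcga
Only 63 bases separate RAD17 from the gene AT5G66120 upstream, and none of the 3 elements occurs in them. WEE1, ATM and ATRIP each hold 1 AACGG in the stretch shown, and none of the 4 stretches holds the other elements. Over 500 bases, which can reach into the neighbouring gene, the SOG1 element occurred before WEE1, RAD9, HUS1 and NBS1, which is 4 of the 10 genes, against 17.5% of 21181 tested genes. Of these, only WEE1 was called, and RAD17 held none of the 3 elements over 500 bases. The match of NBS1, at -326 to -314, lies beyond the 282 bases that separate it from the gene upstream. The match of WEE1, CTTTAGTTATAAG, lies at -410 to -398 from the annotated start. The E2F element occurred before RAD9 alone, as TTTCGCGC at -25 to -18, against 2.41% of all genes, and AACGG before 5 of the 10, against 35.2%. Matches of different elements did not overlap in these 10 genes, and a match of letters does not show binding.

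The genes of the DNA-break kinase branch were lower or did not pass. ATM (AT3G48190, chromosome 3, 17801289 to 17828553, plus strand) was counted at 42.3, 38.9 and 40.8 CPM in Col-0 and at 33.3, 33.6 and 35.9 CPM in the mutant. All mutant samples lay below all Col-0 samples, as for 24.8% of all tested genes. The change to 0.842-fold (95% interval 0.797 to 0.890; edgeR adjusted p = 1.95e-06) was called without any 1 of the samples as well.

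In the complex that binds breaks, the subunits differed in level more than they changed. RAD50 (AT2G31970, chromosome 2, 13600431 to 13609104, plus strand), the ATPase that tethers DNA ends, was at 39.2, 39.6 and 41.9 CPM in Col-0 and 36.6, 37.6 and 37.8 CPM in the mutant. The groups did not overlap, as for 50.3% of all tested genes, and the log2 fold change was -0.10 ± 0.04 (edgeR adjusted p = 0.0210). That call was lost without Col-0 replicate C (adjusted p = 0.132) and without mutant replicate A (adjusted p = 0.0920), and with DESeq2 (adjusted p = 0.0865). MRE11 (AT5G54260, chromosome 5, 22032038 to 22038052, plus strand), the nuclease, was at 11.2, 10.2 and 9.93 CPM in Col-0 and 9.89, 10.3 and 9.96 CPM in the mutant, which overlap. Its fold of 0.958 had an edgeR adjusted p of 0.472 and a 95% interval of 0.875 to 1.05, and its log2 fold change was 0.0019, of the other sign, when library totals alone were used. NBS1 (AT3G02680, chromosome 3, 576308 to 579562, plus strand), the subunit that binds ATM, was at 6.18, 5.84 and 5.51 CPM in Col-0 and 4.75, 5.42 and 5.998 CPM in the mutant. These samples also overlap, and the fold of 0.920 (edgeR adjusted p = 0.295) had a 95% interval of 0.810 to 1.04.

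In the ATR branch, ATRIP was the member with the clearer decrease. ATRIP (AT5G45610, chromosome 5, 18496228 to 18499888, minus strand) stood at 18.4, 19.1 and 18.4 CPM in Col-0 and 15.2, 15.98 and 15.01 CPM in the mutant. Every mutant sample was below every Col-0 sample, as for 24.8% of all tested genes. The fold was 0.826 (95% interval 0.769 to 0.887, edgeR adjusted p = 2.16e-05). The kinase gene ATR (AT5G40820, chromosome 5, 16342728 to 16353898, minus strand) was at 10.8, 9.54 and 11.1 CPM in Col-0 and 9.10, 9.70 and 9.06 CPM in the mutant. Here the lowest Col-0 sample lay under the highest mutant sample, and the fold was 0.888 (95% interval 0.807 to 0.978; edgeR adjusted p = 0.0405). That call was lost without Col-0 replicate A (adjusted p = 0.139) or C (0.167) and without mutant replicate A (0.107) or C (0.106), and with DESeq2 (adjusted p = 0.152). A copy of at least 90% identity covers 10.3% of the exons of ATR, the largest part of it in the neighbouring gene AT5G40830 at 91.7% identity, so a small share of its count is uncertain. No such copy was found for the other 9 genes.

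Of the clamp that RAD17 loads, neither RAD9 nor HUS1 passed the test. RAD9 (AT3G05480, chromosome 3, 1585272 to 1589292, plus strand) was at 3.24, 3.24 and 3.34 CPM in Col-0 and 4.04, 3.26 and 3.62 CPM in the mutant. The mutant samples spread from within the Col-0 range to above it, and the fold of 1.11 had a 95% interval of 0.955 to 1.30 (edgeR adjusted p = 0.267). HUS1 (AT1G52530, chromosome 1, 19568588 to 19570058, plus strand) was the least counted, at 45, 48 and 38 counts in Col-0 and 37, 36 and 50 in the mutant, or 1.25, 1.32 and 1.25 CPM against 0.970, 0.946 and 1.32 CPM. The groups overlap, and at this depth the 95% interval of the fold, 0.655 to 1.102, leaves a decrease by more than 1.5-fold within its range (edgeR adjusted p = 0.322). A non-coding gene on the other strand lies over most of the 32.1% of HUS1 exons that are shared with other genes, so its count is uncertain. RAD1, the remaining clamp subunit, rose from 2.60 ± 0.23 to 3.21 ± 0.37 CPM (log2 fold change 0.31 ± 0.12, edgeR adjusted p = 0.0372), a call that was lost without any 1 of 4 samples, with adjusted p-values up to 0.221, and with DESeq2 (adjusted p = 0.168).

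The ratio of the counts of a pair of genes within a library does not depend on the scaling between libraries. For 9 such pairs the ratios were compared by an exact two-sided permutation test over the 6 samples, whose smallest possible p is 0.1, so that none could be called. The ratio of WEE1 to ATR rose by 0.93 on the log2 scale, from -0.75 ± 0.15 to 0.17 ± 0.09, with no overlap between the groups (exact permutation p = 0.1, adjusted p = 0.3 over the 9 pairs). The ratio of HUS1 to RAD9 fell by 0.40 and that of RAD1 to HUS1 rose by 0.55, also without overlap and at the same p-values. Mutant replicate C lay nearest to Col-0 in both of these ratios. Both rest on HUS1, which had only 36 to 50 counts per library and shares exons with other genes. With 1 sample left out, the difference for HUS1 to RAD9 ranged over -0.55 to -0.25. Between subunits of the break-binding complex the ratios fell by 0.016 to 0.065 on the log2 scale, with overlap and exact p-values of 0.7 to 0.8. The ratios of ATRIP to ATR and of ATM to ATR differed by -0.10 and -0.075 (exact permutation p = 0.2 and 0.4).

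**Figure D2:**
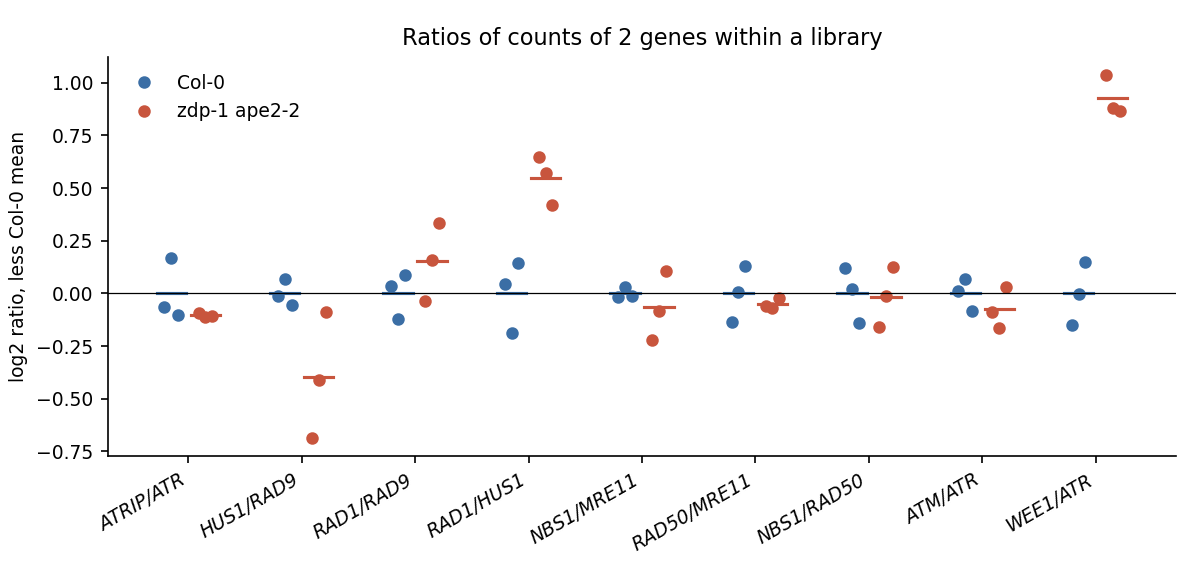
Log2 ratio of the counts of 2 genes within each library, less the mean of Col-0, for 9 pairs; points are libraries of Col-0 (blue) and zdp-1 ape2-2 (red), and bars their means. The 3 mutant samples are above all Col-0 samples for WEE1 to ATR and RAD1 to HUS1 and below them for HUS1 to RAD9.

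Per kilobase of exon, the level of the 10 genes in Col-0 spanned 8.62-fold. RAD50 was highest at 9.003 ± 0.33 CPM per kb, followed by ATRIP at 7.75 ± 0.17, and neither overlapped its neighbour in the order. ATM (4.18 ± 0.18), MRE11 (3.89 ± 0.24), WEE1 (3.29 ± 0.49), NBS1 (3.03 ± 0.17) and RAD17 (2.93 ± 0.05) formed a run in which each overlapped the next. RAD9 followed at 1.52 ± 0.03, and ATR (1.13 ± 0.09) and HUS1 (1.04 ± 0.03) overlapped at the bottom. In the mutant RAD17 reached 7.30 ± 0.36 CPM per kb and stood in the second place, below RAD50 at 8.36 ± 0.15 and above ATRIP at 6.40 ± 0.21, and WEE1 stood in the fourth at 5.53 ± 0.34, all without overlap. ATR and HUS1 stayed lowest in both genotypes. Per kilobase, ATRIP was 6.88 times ATR in Col-0 and 6.40 times in the mutant. Such ratios also carry any difference in read coverage along long and short transcripts, which gene counts do not show.

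ATM and ATR have the longest exon totals of the 10, 9734 and 9295 bases, and long genes as a class were lower in the mutant. Of 66 tested genes with at least 7000 bases of exon, 63.6% were lower and 6.06% higher, with a median log2 fold change of -0.10, while of 3030 genes under 1000 bases 14.4% were lower and 21.9% higher, with a median of 0.038. The 3 other members of the kinase family to which ATM and ATR belong are also long, and all 3 were lower. The growth regulator TOR went from 99.1 ± 2.03 to 90.7 ± 0.84 CPM (-0.13 ± 0.03, edgeR adjusted p = 0.000184). TRA1A (AT2G17930) and TRA1B (AT4G36080), 2 related genes of transcription coactivator subunits, had log2 fold changes of -0.16 ± 0.03 and -0.19 ± 0.03. When each library was corrected for GC content and exon length, the log2 fold change of ATM was -0.17 (edgeR adjusted p = 0.000254), and those of ATR and RAD50 were -0.093 and -0.067 and did not pass (adjusted p = 0.279 and 0.143). ATRIP, with 2406 bases of exon, was at -0.28 with and without the correction, and RAD17 and WEE1 at 1.31 and 0.75. Of the kinase relatives, TRA1A (-0.067, edgeR adjusted p = 0.0336) and TRA1B (-0.10, edgeR adjusted p = 0.00621) still passed with it, and TOR did not (-0.055, edgeR adjusted p = 0.0874).

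**Figure D3:**
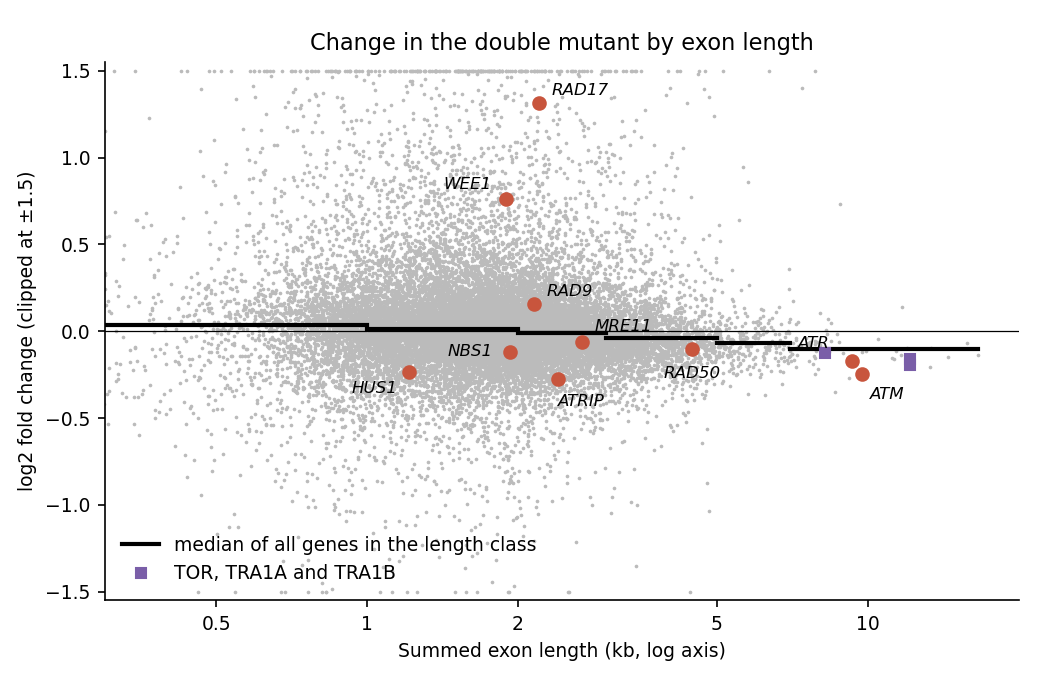
Log2 fold change of each tested gene (grey, clipped at ±1.5) against its summed exon length on a log axis, with black bars for the median of each length class, red points for the 10 genes and purple squares for 3 related kinase-family genes. ATM and ATR lie at the long end, where the median is -0.10, while RAD17 and WEE1 lie high among genes of average length.

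Of 25 genes that act beside these sensors in the checkpoint, in break processing or in clamp loading, 15 rose, 1 fell and 9 did not pass (median log2 fold change 0.18), where 22.2% of all genes were higher. With DESeq2 12 were higher and 1 lower. The list was chosen with earlier results of these data known, so setting it beside all genes is no test of enrichment. The largest rise was in COM1 (AT3G52115), which works with the break-binding complex in end resection. Its level went from 4.21, 3.95 and 3.90 CPM in Col-0 to 9.34, 8.62 and 9.93 CPM in the mutant, with a log2 fold change of 1.21 ± 0.08 (edgeR adjusted p = 3.61e-15). COM1 thus stood close to RAD17 in size, while the subunits of the break-binding complex itself were at -0.12 to -0.062. The resection nuclease gene EXO1A (AT1G29630) rose by 0.41 ± 0.06, and its paralogue EXO1B (AT1G18090) was at 0.096 ± 0.07 with overlapping groups (edgeR adjusted p = 0.303). Exons of another gene lie over 30.6% of those of EXO1B, so its count is uncertain, and over none of those of EXO1A. The nuclease-helicase gene DNA2 (AT1G08840) fell by 0.36 ± 0.06 and was the only lower gene of the 25.

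The other called partners rose by less than COM1. BARD1, the partner of BRCA1, rose by 0.45 ± 0.05 on the log2 scale, the helicase gene FANCM by 0.41 ± 0.08, and the fork-protection gene TIM (AT5G52910) by 0.36 ± 0.06. FANCD2, of crosslink repair, rose by 0.35 ± 0.06, and the histone H2AX gene HTA3, 62.3% of whose exons lie under other genes, by 0.32 ± 0.05. The other H2AX gene, HTA5, which no other gene overlaps, went from 66.0 ± 1.45 to 68.4 ± 2.99 CPM and did not pass (0.051 ± 0.03, edgeR adjusted p = 0.206). The nuclease gene FAN1 and the gene TAN, at -0.031 and -0.019, did not pass either (edgeR adjusted p = 0.700 and 0.878). MEI1, a relative of the ATR activator TopBP1 of animals, rose by 0.22 ± 0.06, though not without Col-0 replicate A (edgeR adjusted p = 0.0569). SOG1, on which the kinases act, rose by 0.14 ± 0.05, a call that was lost without Col-0 replicate A or mutant replicate A (adjusted p up to 0.0833) and with DESeq2 (adjusted p = 0.129).

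RAD17 acts together with the small subunits of replication factor C, which it shares with other clamp loaders, and these changed less than RAD17. RFC2 rose by 0.28 ± 0.07 and the replication loader subunit RFC1 by 0.18 ± 0.03, while the values of RFC4, AT5G27740 and AT1G77470 lay between -0.028 and 0.076 and did not pass. CTF18, of the cohesion-linked loader, rose by 0.22 ± 0.06, and ELG1 (AT1G77620), of the unloader, was at -0.042. The edgeR adjusted p-values of the called partners named here ran from 3.61e-15 for COM1 to 0.0372 for RAD1. Among 14 known targets of the damage response, all 13 that could be tested were higher, at log2 fold changes from 0.84 to 6.60 and a median of 2.22, where 22.2% of all tested genes were higher. Those with the smallest p were the ribonucleotide reductase gene TSO2 at 2.15 ± 0.03, the repair gene BRCA1 at 2.63 ± 0.04 and the thymidine kinase gene TK1A at 2.22 ± 0.03. RAD17 lies below their median and WEE1 below their lowest value. The remaining gene, SMR5, has its exons wholly under another gene and was at 0 in every library. This list too was chosen with earlier results of these data known, so its share is no test of enrichment.

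**Figure D4:**
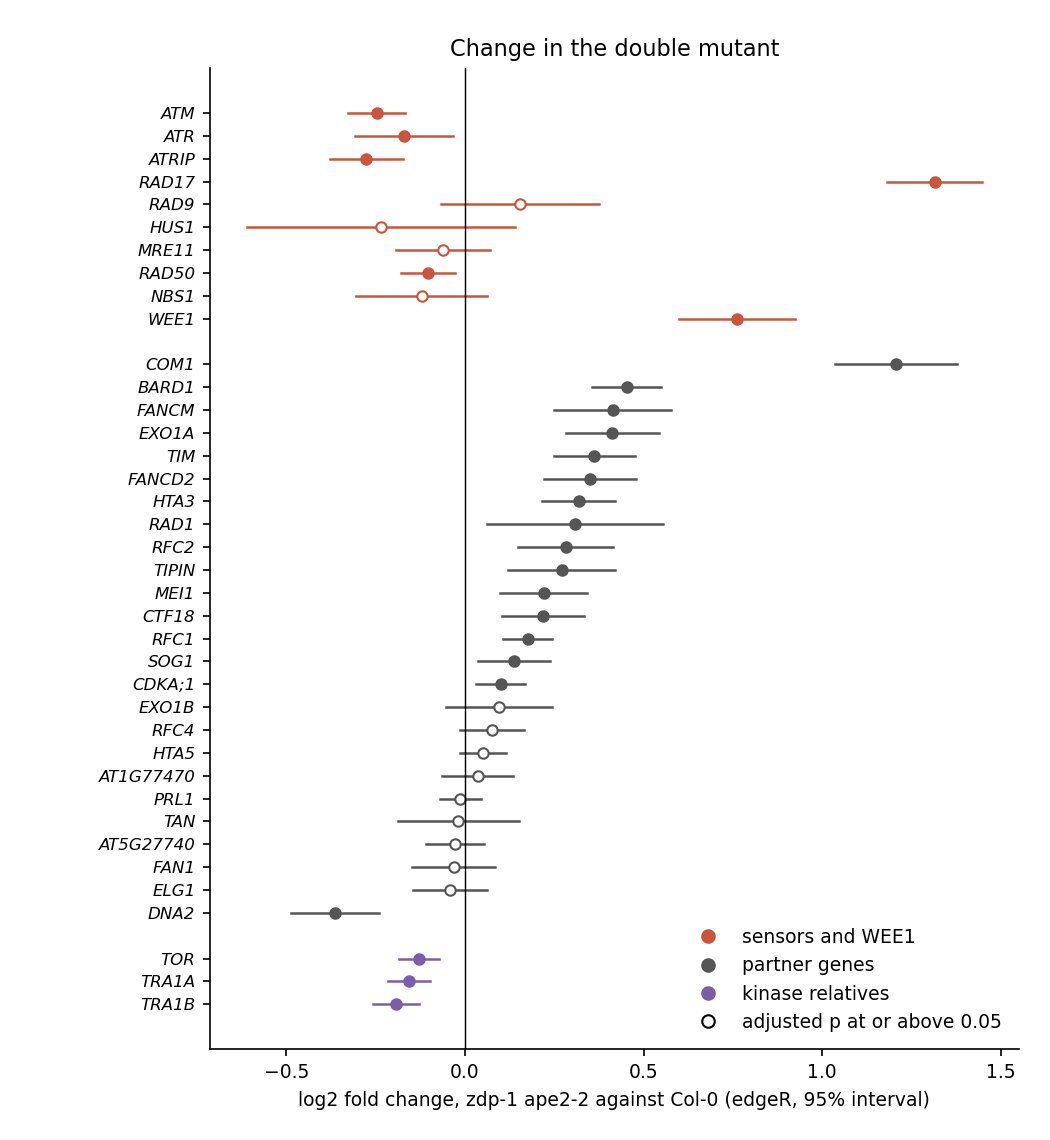
Log2 fold change of zdp-1 ape2-2 against Col-0 with its 95% interval, for the 10 genes (red), the 25 partner genes in order of change (grey) and 3 related kinase-family genes (purple); open points did not pass the test. RAD17, COM1 and WEE1 stand apart at 1.31, 1.21 and 0.76, and every other value lies between -0.36 and 0.45.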

How the data were processed

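The authors deposited 1 table per sample with raw whole-number read counts per gene and the summed exon length of each gene. The submitters' processing notes name STAR and TAIR10. How reads were counted, whether by strand, and the annotation release are not given in the sources used here. Sequences and symbols came from RefSeq's TAIR10.1: 33309 of 33489 genes had the same coordinates there, and 96.0% of 116869 introns between the deposited exons began with GT and ended with AG. Groups and replicate letters were taken from the sample titles.

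Genes were kept with filterByExpr, scaled by TMM and tested with edgeR 4.0.16 in R 4.3.3 (quasi-likelihood F test, genotype as the only term, two-sided, Benjamini-Hochberg over 21182 genes, threshold 0.05). The fit was tested on simulated data. Standard errors are the absolute log2 fold change over the square root of F. Alternatives used DESeq2 1.42.0, RLE scaling, library totals, no filter, a replicate block, each sample left out, an assumed coefficient of variation, and smooth curves of GC content and exon length per library fitted with mgcv 1.9.3. Ratios had 0.5 added to each count. Copies of exons were searched with BLAST 2.17.0. Intervals were set on the log2 scale, from the log2 fold change, its standard error and a t distribution. In the text they were turned into folds, and they reflect the scatter of these samples alone. A chi-square test within groups gave 1.57 to 1.96 per gene over 6 pairs of libraries, so none was a repeat deposit. The genes and lists were chosen with earlier results of these data known. Genes named beyond the 10 were the called partners with the smallest p, up to 12, with RAD1 and SOG1, the 3 kinase relatives, the 3 damage targets with the smallest p, ZDP and APE2, and the 3 profiles nearest to the gene with the largest change. Partners named with no call, and SMR5, AP1 and RNR1, were chosen after their values were seen.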

Additional observations from a re-analysis of the deposited data

How the results depend on the processing

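RAD17 and WEE1 were called higher in all 14 alternatives, with log2 fold changes of 1.28 to 1.38 and 0.69 to 0.88. ATM and ATRIP were called lower in all but 1, an assumed coefficient of variation of 0.1, where they had -0.25 and -0.28 (adjusted p = 0.220 and 0.175). That setting called 1668 genes higher and 760 lower, with 5 partner genes higher and 0 of the 10 genes lower. ATR and RAD50 did not pass with it (-0.17 and -0.11), with DESeq2 (-0.17 and -0.11), with library totals alone (-0.11 and -0.040), with the GC and length correction (-0.093 and -0.067) or with that correction and the replicate block (-0.093 and -0.068). Of the 10 genes, 2 were lower under each of the last 4 settings. With library totals 2717 genes were lower and MRE11 had 0.0019 (adjusted p = 0.984), a reversed sign near 0. The causes were not tested.

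Leaving out 1 sample at a time gave 4220 to 4397 genes higher and 3994 to 4224 lower, 2 of the 10 genes higher in each case and 2 to 4 lower, and 11 to 15 partner genes higher with 1 lower. The log2 fold changes ranged over -0.28 to -0.22 for ATM, -0.24 to -0.13 for ATR, -0.30 to -0.26 for ATRIP, -0.12 to -0.077 for RAD50, -0.094 to -0.0090 for MRE11, -0.21 to -0.038 for NBS1, -0.41 to -0.15 for HUS1 and 0.072 to 0.23 for RAD9. Differences of log2 ratios ranged over -0.15 to 0.012 for NBS1 to MRE11, -0.12 to 0.016 for RAD50 to MRE11 and -0.088 to 0.056 for NBS1 to RAD50, and kept their sign for the other 6 pairs.

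Samples with the same letter did not deviate together (r = -0.023 to 0.068 over 12760 genes), which does not show what the letters stand for. With the replicate block 4830 genes were higher and 4620 lower, and the calls of the 10 genes were the same. The low counts of HUS1 limit what can be said of it.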
